A study of Mus musculus with 6 samples.

Results

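The 9 genes described here encode subunits of the transcription factor AP-1 or close relatives of them: the Fos family (Fos, Fosb, Fosl1, Fosl2), the Jun family (Jun, Junb, Jund), Atf3 and the small Maf protein gene Maff. They were taken by name from the 22609 gene rows of the deposited count files, and all 9 had enough counts to be among the 12301 genes tested. The cells were primary hepatocytes, which carry out most metabolic work of the liver, taken from male C57BL/6 mice, wild type and 4 months of age. One group of 3 samples received phosphate-buffered saline (PBS) and the other group of 3 received 20 µg/mL of the secreted glycoprotein LRG1, both for 16 h, and mRNA was sequenced. The comparison asks which hepatocyte genes respond to the added protein. Whether the 3 replicates were independent isolations is not stated, so the p-values rest on a spread between samples that could be purely technical. The groups share strain, sex and age, and no genotype differs between them.

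AP-1 is a dimer of basic leucine zipper proteins. Jun proteins can pair with each other or with Fos and ATF proteins, whereas Fos proteins mainly act with a Jun partner, and the pairing sets how strongly a dimer binds the palindrome TGACTCA and related DNA sequences. Jun and Fos are strong activators, Junb and Jund are weaker and can oppose Jun, Fosl1 and Fosl2 lack the strong activation domain of Fos, and Maff has none. In liver, Jun is known for its role in regeneration, and Fos, Jun and Atf3 are rapidly induced when hepatocytes are isolated and plated.

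Hepatocytes given LRG1 had more mRNA of Junb (2.66-fold), Fosb (3.13-fold) and Fosl2 (1.46-fold) and less of Atf3 (2.44-fold lower), Fosl1 (2.10-fold lower), Fos (1.78-fold lower), Jund (1.58-fold lower) and Jun (1.46-fold lower). Maff was 1.10-fold higher, the smallest difference of the 9. Of the 9 genes, 4 were higher and 5 lower at an adjusted p under 0.05 in edgeR's quasi-likelihood test, against 25.5% and 25.8% of all tested genes. Since 51.4% of all tested genes passed in one direction or the other, passing alone says little about these genes. With a difference of at least 1.5-fold added to the rule, 2 were higher (Junb, Fosb) and 4 lower (Atf3, Fosl1, Fos, Jund), against 7.49% and 10.6% of all tested genes (18.1% in either direction). At 2-fold or more the count was 4 of the 9 (Fosb, Junb, Atf3, Fosl1), against 9.5% of all tested genes. The 9 genes were chosen with earlier results of these data known, so no conclusion is drawn from these shares. The ranges of the 2 groups did not overlap for any of the 9 genes, which was also so for 57.6% of all tested genes.

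**Figure D1:**
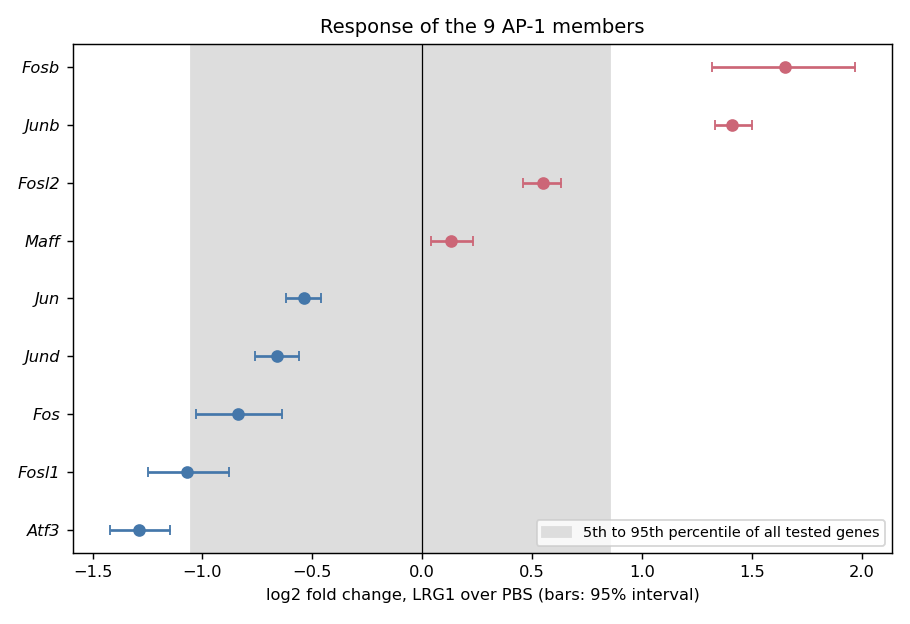
Log2 fold change (LRG1 over PBS) of each of the 9 genes with its 95% interval from the edgeR fit, over the 5th to 95th percentile of all tested genes (-1.05 to 0.86, grey). Fosb and Junb lie above the grey band and Atf3 and Fosl1 below its lower edge, while the interval of Fosl1 reaches into it.

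In the GRCm38 annotation (GENCODE M21) Junb (chr8:84974484-84978718) and Jund (chr8:70698949-70700616) lie on the same chromosome and the other genes each on its own. Fos is at chr12:85473890-85477273, Fosb at chr7:19302696-19310051, Fosl1 at chr19:5447547-5455946 and Fosl2 at chr5:32135801-32157842. Jun is at chr4:95049034-95052222, Atf3 at chr1:191170296-191218039 and Maff at chr15:79346621-79359076. The authors' counts were made on mm9, so these positions name the genes and were not used to count.

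Because Jun and Fos fell while their relatives Junb and Fosb rose, the stretches just before the transcription starts of these 4 genes are shown, 5′ to 3′ and ending at the RefSeq start (GRCm38.p6), or for Fosb at the first annotated exon base, with matches to the searched motifs in capitals. The windows are chr8:84978749-84978848 on the minus strand, chr7:19310052-19310145 on the minus strand, chr4:95052223-95052322 on the minus strand and chr12:85473790-85473889 on the plus strand.
Junb: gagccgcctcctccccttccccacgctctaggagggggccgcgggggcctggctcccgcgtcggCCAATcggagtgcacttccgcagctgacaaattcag
Fosb: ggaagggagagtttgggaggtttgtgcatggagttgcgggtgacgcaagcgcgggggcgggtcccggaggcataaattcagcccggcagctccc
Jun: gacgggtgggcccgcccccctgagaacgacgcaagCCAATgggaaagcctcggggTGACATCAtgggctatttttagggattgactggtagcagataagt
Fos: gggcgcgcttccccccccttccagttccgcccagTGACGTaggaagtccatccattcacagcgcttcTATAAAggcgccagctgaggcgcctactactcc

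RefSeq promoter windows were found for 8 of the 9 genes (3 of them for Maff) and not for Fosl1. RefSeq and GENCODE starts differ for some genes: the Jund window lies wholly upstream of the GENCODE gene, and the windows of Fosl2 and Atf3 and 2 of the 3 Maff windows lie wholly inside it, so other starts of these genes were not searched. The 250 bases before each start were searched on both strands for 11 motifs. Fos held TGACGT at position -66 and TATAAA at -33, counted back from the start. Jun held TGACATCA, the variant through which AP-1 and ATF proteins are known to act on Jun itself, at -45, and CCAAT at -65. Junb held only CCAAT, at -36. Atf3 held TGACGT on the opposite strand at -8, and most of this match lies in bases annotated as exon in GENCODE M21. One Maff window held TGACGTCA at -29, which contains TGACGT on both strands, and another held TGACATCA at -45. No match was found in the windows of Fosb, Fosl2 and Jund. Of 32851 promoter windows in the table, 1.55% held TGACGTCA, 6.47% TGACGT, 2.93% TGACATCA, 33.8% CCAAT and 12.4% TATAAA. The AP-1 palindrome TGACTCA (4.46% of windows), the CArG box bound by SRF (1.47%), the Maf recognition element (0.116%, which contains the AP-1 palindrome), the SMAD motifs CAGACA (17.1%) and GTCTAGAC (0.167%) and the STAT motif (3.27%) had no match in any window of the 9 genes. These are matches of letters in a short window, and binding was not measured. Bases more than 250 before a start were not searched, so no match here does not mean that a gene lacks the motif. The genes that rose and those that fell did not share a motif within their own group in these windows, apart from TGACGT in Fos and Atf3.

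The Jun family supplies the usual partners of Fos proteins. Levels are given in CPM, the reads of a gene relative to all gene reads of its library after scaling by edgeR's TMM factors. Junb stood at 169, 166 and 174 CPM in PBS replicates 1 to 3 and at 473, 437 and 446 CPM in LRG1 replicates 1 to 3. The lowest LRG1 library was far above the highest PBS library. The group means were 170 ± 4.39 and 452 ± 19.1 CPM (SD, n = 3 each), a log2 fold change of 1.41 (SE 0.041, edgeR adjusted p = 1.83e-18).

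Jun, the founding member of the family, went the other way. It stood at 162, 163 and 160 CPM with PBS and at 115, 108 and 111 CPM with LRG1. The groups were apart by many times the spread within either one, and the log2 fold change was -0.54 (95% interval -0.62 to -0.46, SE 0.040, edgeR adjusted p = 6.56e-11). Jund, the broadly expressed member, had 228, 241 and 253 CPM with PBS and 165, 149 and 144 CPM with LRG1. All LRG1 values were lower, with a log2 fold change of -0.66 (SE 0.048, edgeR adjusted p = 5.30e-11). In GENCODE M21 an antisense transcript covers 877 of the 1668 bases of the Jund transcript, and another covers 232 bases of Jun. Neither antisense gene has a row of its own in the count files, and whether the counting used the strand is not given in the sources used here, so antisense reads cannot be told apart from reads of Jund and Jun. The longest coding transcript of Junb overlaps no other gene. Over all its annotated exons, however, Junb shares 173 bases with Prdx2 on the opposite strand. Prdx2 has a row of its own, with means of 199 CPM with PBS and 198 CPM with LRG1. Whether this overlap affected the count of Junb was not tested.

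The Fos family binds DNA mainly together with Jun proteins. Fosb, an inducible member, was the scarcest of the 9 genes in both groups. It had 40, 38 and 44 counts in the PBS libraries and 131, 139 and 151 in the LRG1 libraries, or 2.02, 2.05 and 2.33 against 6.52, 6.00 and 7.61 CPM. Every LRG1 library was above every PBS library. The log2 fold change was 1.65, with a wider interval than for the other 8 genes (1.32 to 1.97, SE 0.16, edgeR adjusted p = 5.99e-09).

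Fosl2, which encodes Fra-2, stood at 88.3, 92.6 and 90.5 CPM with PBS and at 131, 131 and 134 CPM with LRG1. The LRG1 libraries were nearly equal to each other and all above the PBS libraries (log2 fold change 0.55, SE 0.041, edgeR adjusted p = 7.96e-11). Fos, the classic immediate early gene, had 13.7, 14.3 and 14.2 CPM with PBS and 8.02, 7.73 and 7.86 CPM with LRG1. The spread within each group was small beside the gap between them (log2 fold change -0.84, SE 0.095, edgeR adjusted p = 8.97e-08).

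Fosl1, which encodes Fra-1, went from 21.8, 22.1 and 24.0 CPM with PBS to 10.3, 12 and 9.98 CPM with LRG1. LRG1 replicate 2 was the highest of its group and still below all PBS libraries. The log2 fold change was -1.07 (SE 0.088, edgeR adjusted p = 4.05e-10). Ccdc85b, on the opposite strand, covers 1163 of the 1864 bases of the longest Fosl1 coding transcript in GENCODE M21. The count of Fosl1 may therefore depend on how reads in these bases were treated. Ccdc85b had 338, 388 and 336 counts with PBS and 195, 183 and 154 with LRG1, a log2 fold change of -1.14, close to that of Fosl1. Unlike the antisense genes of Jund and Jun, Ccdc85b has a row of its own. Reads in the shared bases could be assigned by strand or set aside as ambiguous, and which was done is unknown. Over all genes, ambiguous reads were 0.258 to 0.280% of uniquely aligned reads per library. Whether the overlap affected the fold change of Fosl1 was not tested.

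Atf3, a stress-induced protein that can pair with Jun and often represses transcription, had the lowest fold change of the 9 genes. It stood at 51.7, 46.6 and 47.7 CPM with PBS and at 18.7, 21.3 and 19.7 CPM with LRG1. The lowest PBS library was more than 2-fold above the highest LRG1 library. The log2 fold change was -1.29 (95% interval -1.42 to -1.15, SE 0.067, edgeR adjusted p = 8.56e-14).

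Maff, a small Maf protein that pairs with cap'n'collar factors such as NRF2, had 75.9, 76.1 and 81.1 CPM with PBS and 84.2, 82.9 and 88.5 CPM with LRG1. The groups did not overlap, but the gap between their nearest libraries was smaller than the range within either group. The log2 fold change was 0.13 (95% interval 0.04 to 0.23, edgeR adjusted p = 0.0214). Leaving out PBS replicate 1 gave an edgeR adjusted p of 0.0846, leaving out PBS replicate 2 gave 0.0685, and leaving out LRG1 replicate 3 gave 0.104, so that the call was lost each time. Its adjusted p by edgeR, DESeq2 or limma ran from 0.00147 to 0.104 over all 16 alternatives.

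**Figure D2:**
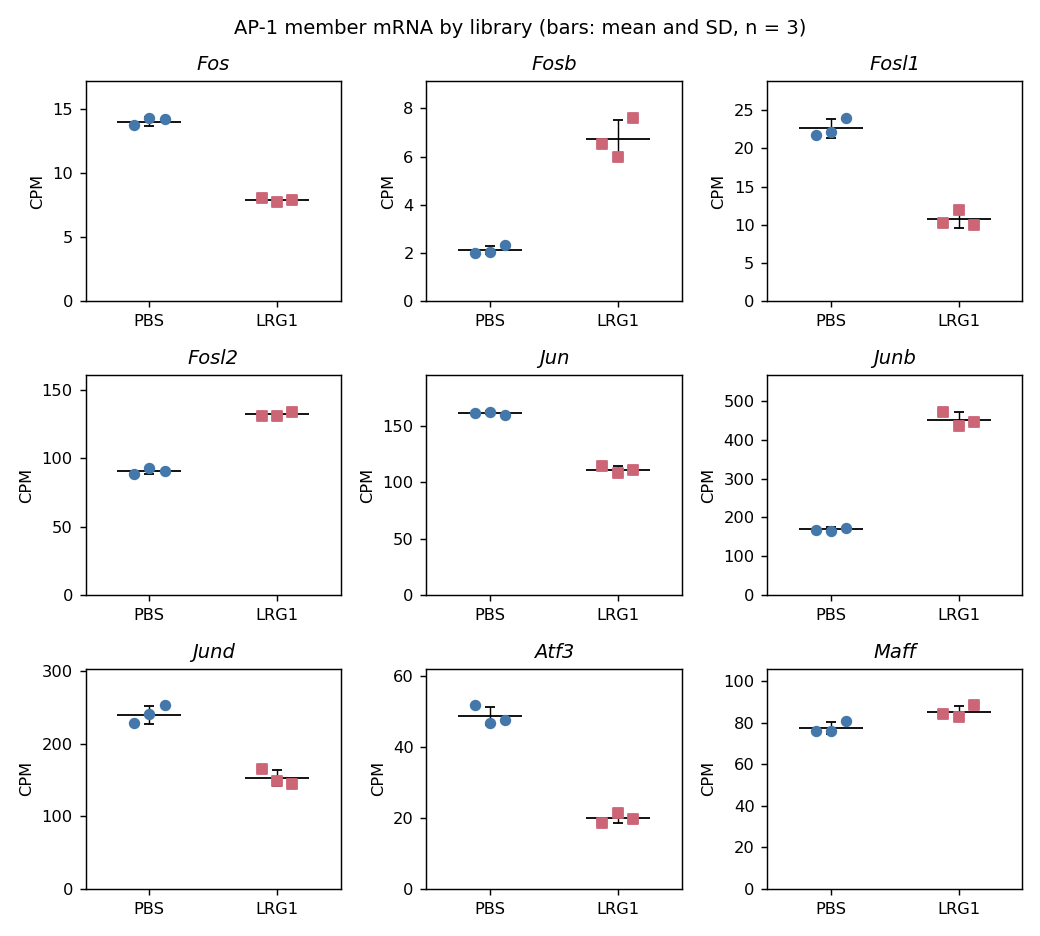
CPM of each gene in the 3 PBS libraries (circles) and the 3 LRG1 libraries (squares), with the mean and SD of each group, on axes that start at 0. Junb, Fosb and Fosl2 are higher in all LRG1 libraries, Fos, Fosl1, Jun, Jund and Atf3 are lower in all of them, and Maff differs least.

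To compare the genes with each other, CPM was divided by the length of each gene's longest coding transcript, which ran from 1.67 kb (Jund) to 6.54 kb (Fosl2). With PBS the order of levels per kb was Jund (144 ± 7.47 CPM per kb, SD, n = 3), Junb (93.9 ± 2.43), Jun (50.8 ± 0.504), Maff (39.7 ± 1.51), Atf3 (24.5 ± 1.34), Fosl2 (13.8 ± 0.332), Fosl1 (12.1 ± 0.644), Fos (6.66 ± 0.156) and Fosb (0.565 ± 0.0457). With LRG1 Junb came first at 250 ± 10.6 CPM per kb, followed by Jund at 91.5 ± 6.57, Maff at 43.5 ± 1.51, Jun at 34.9 ± 1.13 and Fosl2 at 20.2 ± 0.232. Atf3 (10.0 ± 0.651), Fosl1 (5.76 ± 0.590), Fos (3.73 ± 0.0682) and Fosb (1.77 ± 0.217 CPM per kb) came after them. The libraries of neighbours in either order did not overlap. The nearest neighbours were Fosl2 and Fosl1 with PBS, where the lowest Fosl2 library had 13.5 and the highest Fosl1 library 12.9 CPM per kb. With all annotated exons as the length, retained introns included, that pair changed places (9.35 ± 0.224 for Fosl2 and 11.1 ± 0.590 for Fosl1), and so did Maff and Jun with LRG1 (32.8 ± 1.14 and 34.9 ± 1.13).

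The makeup of both families differed between the groups. Junb made up 33.3, 31.9 and 32.3% of Jun family mRNA per kb in the PBS libraries and 66.0, 66.2 and 67.1% in the LRG1 libraries. Jund fell back from 49.9 ± 1.17 to 24.3 ± 0.748% (SD, n = 3) and Jun from 17.6 ± 0.662 to 9.29 ± 0.189%. The ratio of Junb to Jun, which does not depend on the scaling of the libraries, was 1.84, 1.79 and 1.92 with PBS and 7.25, 7.14 and 7.07 with LRG1, a 3.87-fold difference of the means.

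Within the Fos family, Fosl2 made up 42.0, 42.5 and 40.7% with PBS and 64.6, 63.2 and 64.9% with LRG1. The share of Fosl1 went from 36.5 ± 1.14 to 18.3 ± 1.75%, that of Fos from 20.1 ± 0.297 to 11.9 ± 0.341% and that of Fosb from 1.70 ± 0.0998 to 5.64 ± 0.692%. Summed Fos family mRNA was 33.2 ± 0.936 CPM per kb with PBS and 31.5 ± 0.331 with LRG1. The direction of that sum turns with the length used, since on CPM with no length it was 129 ± 3.06 with PBS and 157 ± 1.67 with LRG1. Per kb, summed Jun family mRNA was 289 ± 8.63 and 376 ± 17.7, and it was also higher with LRG1 on CPM with no length (572 ± 14 and 716 ± 32.7). The ratio of Jun family to Fos family mRNA was 8.70 ± 0.0746 with PBS and 12 ± 0.690 with LRG1. That ratio too depends on the length: on counts with no length it was 4.43 and 4.55. The shares and sums are descriptions of the same 6 libraries, and no test was made on them.

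**Figure D3:**
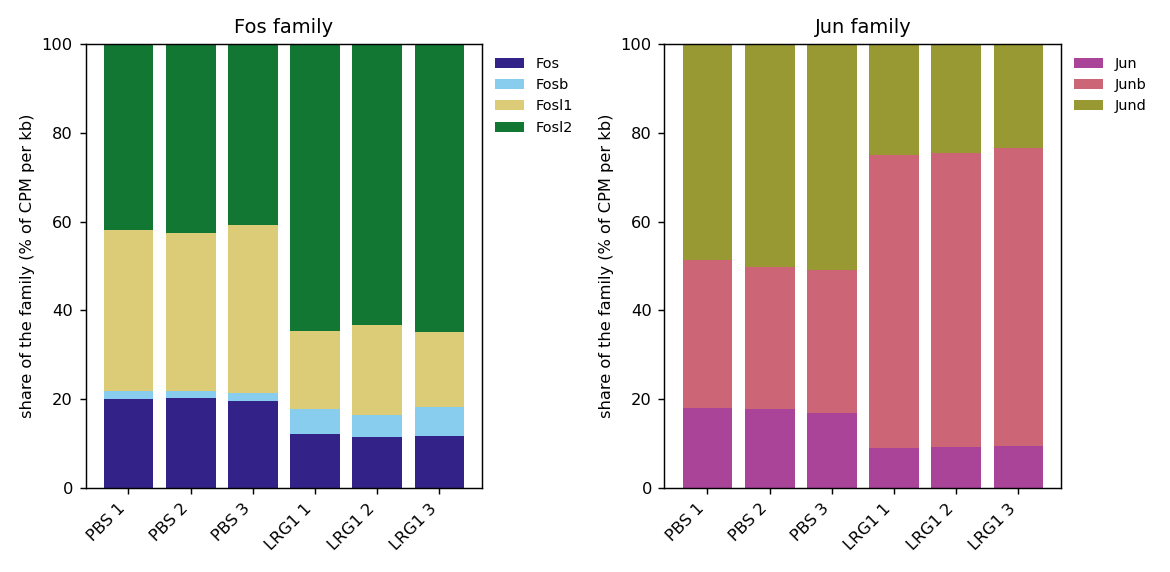
Share of each member in the summed CPM per kb of the Fos family (left) and the Jun family (right), 1 bar per library. Junb, the middle segment, takes 66.0 to 67.1% of the LRG1 bars and 31.9 to 33.3% of the PBS bars, and Fosl2, the top segment of the Fos family, is also larger in all LRG1 bars.

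Of the 14 listed ATF, BATF and CREB genes, 11 were tested, of which 6 were lower and 2 higher, while 3 did not pass, against 25.8% lower and 25.5% higher of all tested genes (median log2 fold change -0.20, against 0.0093 over all tested genes). Atf5, a stress-responsive factor, fell from 284 ± 25.6 to 151 ± 5 CPM (log2 fold change -0.91, edgeR adjusted p = 3.42e-13). Creb5, Atf6 and Atf4 had log2 fold changes of -0.59, -0.45 and -0.21. The 2 higher genes, named here after their values were seen, were Jdp2, a repressor that pairs with Jun (4.78 and 7.29 CPM), and Creb1 (41.9 and 48.3 CPM). Creb1 was no longer called without LRG1 replicate 3 or with GC and length trends removed, and Jdp2 was called in all 16 alternatives. Batf, Batf2 and Batf3 had too few counts to be tested.

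Of the 12 listed partners and relatives of Maff, 9 were tested, 5 of them lower and 1 higher, with a median of -0.16, where 25.8% and 25.5% of all tested genes were lower and higher. Nfe2l2, which encodes the oxidative stress factor NRF2, fell from 392 ± 2.60 to 202 ± 1.64 CPM (log2 fold change -0.96, edgeR adjusted p = 3.02e-16). The large Maf gene Maf went from 14.0 ± 0.436 to 7.59 ± 0.331 CPM and the small Maf gene Mafk from 77.1 ± 5.13 to 63.8 ± 3.26 CPM. Nfe2 was also lower, but below 1 CPM in the mean of each group (0.960 ± 0.134 and 0.306 ± 0.217 CPM). Its log2 fold change was -1.65, and -2.34 without LRG1 replicate 3, and it was too scarce to be tested with a filter of 1 CPM in 3 libraries. Mafg, the other small Maf gene, did not pass (39.7 and 41.4 CPM). The single higher gene was Bach2 (11.0 and 13.2 CPM), whose call was lost with DESeq2, without PBS replicate 2, without PBS replicate 3 and without LRG1 replicate 3. Mafg and Bach2 were named after their values were seen.

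Of 24 listed kinases and scaffolds that signal to AP-1, 23 were tested, and 7 rose, 8 fell and 8 did not pass. Of all tested genes, 25.5% rose and 25.8% fell. The median log2 fold change of the list was 0.073. The 4 with the smallest p were all lower. Map3k5, a stress-activated kinase upstream of JNK and p38, fell from 88.1 ± 4.74 to 38.7 ± 0.825 CPM (log2 fold change -1.19, edgeR adjusted p = 4.40e-15). Map2k4, which activates JNK, was 1.39-fold lower and Map2k3, which activates p38, 1.23-fold lower. Mapk8ip1, a JNK scaffold, went from 4.13 ± 0.421 to 1.31 ± 0.244 CPM.

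Among 11 tested factors and coactivators known to act at Fos and Jun promoters, 7 were higher and 2 lower (median 0.18), against 25.5% and 25.8% of all tested genes. Elk3, an ETS factor that can repress Fos through the serum response element, rose from 21 ± 0.770 to 63.6 ± 2.38 CPM (log2 fold change 1.60, edgeR adjusted p = 1.76e-16). The lower genes were Srf, which encodes serum response factor (95.4 ± 5.71 and 69.2 ± 4.88 CPM), and its coactivator gene Mkl2 (143 ± 6.14 and 88 ± 1.59 CPM). The related coactivator gene Mkl1 was 1.35-fold higher. Of 14 genes of AU-rich mRNA decay and AP-1 protein turnover, 6 rose, 1 fell and 7 did not pass (median 0.070), and as a whole they passed about as often as all tested genes (51.4%). Zfp36l2, which binds AU-rich mRNA, was 1.97-fold higher, and its paralog Zfp36 was 1.34-fold lower. Zfp36l1 and Fbxw7, the latter part of a ubiquitin ligase that targets Jun, were 1.11-fold and 1.2-fold higher.

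Of 21 other immediate early genes tested, 9 rose, 4 fell and 8 did not pass (median 0.17), against 25.5% higher and 25.8% lower of all tested genes. Ctgf, a matricellular protein gene, rose from 562 ± 40.1 to 1370 ± 65.2 CPM, Ier3 was 1.99-fold higher and Rhob 1.64-fold higher. The phosphatase gene Dusp1, which restrains JNK and p38, fell from 152 ± 9.74 to 82.1 ± 1.89 CPM (log2 fold change -0.89, edgeR adjusted p = 1.22e-13). The other lower genes, named after their values were seen, were Egr1 (101 ± 3.12 and 57.5 ± 2.42 CPM), Trib1 (log2 fold change -0.55) and Btg2 (log2 fold change -0.43). The log2 fold change of Egr1, -0.81, was close to that of Fos, -0.84. The largest change in the list was a rise, that of Arc (1.35 and 5.98 CPM, log2 fold change 2.14), also named after its values were seen.

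Among 23 tested genes often described as AP-1 targets, 15 rose, 4 fell and 4 did not pass, where 25.5% of all tested genes rose and 25.8% fell. The median of their log2 fold changes was 0.53, and 11 rose at least 1.5-fold, as did 7.49% of all tested genes. This list was written with earlier results of these data known, so its counts are a description and no independent test. Many of these genes also answer to other transcription factors. Mmp9, a gelatin-degrading protease gene, went from a mean of 3.13 ± 1.08 to one of 61.3 ± 6.10 CPM (log2 fold change 4.30, edgeR adjusted p = 1.05e-18, SE 0.12). Cd44 and the integrin gene Itga5 were 1.82-fold and 1.83-fold higher. The 4 lower genes, named after their values were seen, were the cyclin gene Ccnd1 (log2 fold change -1.64), Areg (-1.16), Plaur (-0.51) and Trib3 (-0.18).

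**Figure D4:**
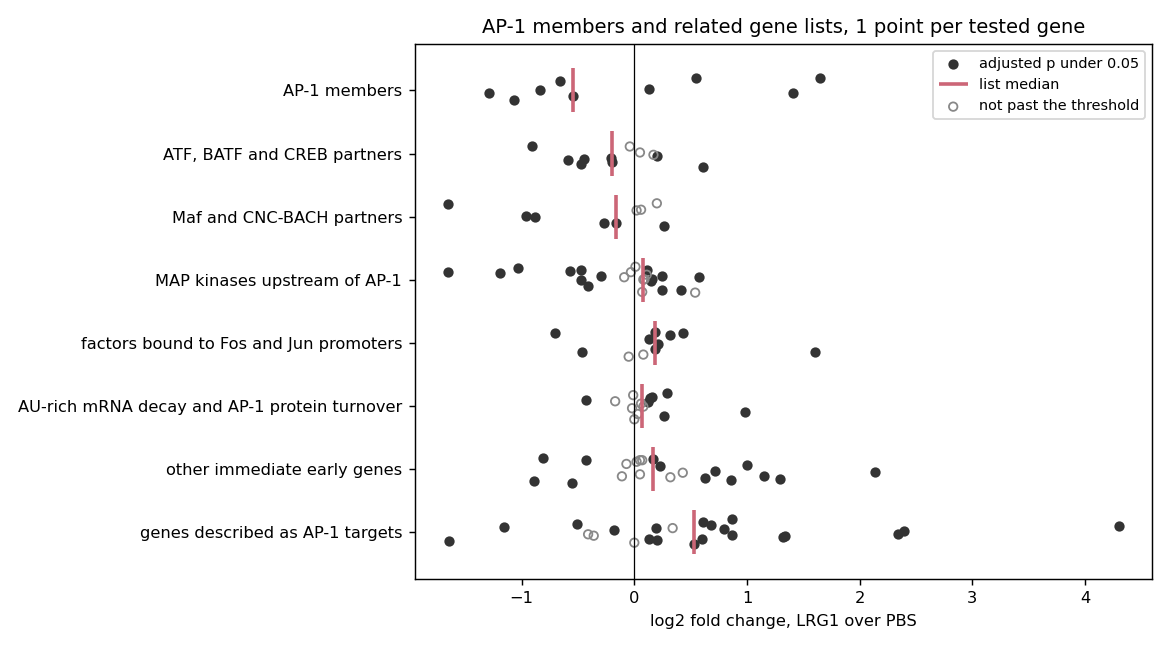
Log2 fold change (LRG1 over PBS) of every tested gene of the AP-1 members and of 7 related lists, 1 point per gene, filled where the edgeR adjusted p is under 0.05, with the median of each list as a bar. The AP-1 members spread from -1.29 to 1.65 with none near the median of all genes except Maff, and the list of described targets has the highest median, 0.53. The members and lists were chosen with earlier results of these data known.

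The genes whose pattern over the 6 libraries lay nearest to that of Fosb, among 11002 candidates and measured as the root mean square distance of centred log2 CPM, included Fbxo32 (0.077) and Gm14005 (0.096). For Atf3 they were Plcxd2 (0.047), Mgst3 (0.065) and D4Bwg0951e (0.073). Fbxo32, a ubiquitin ligase subunit gene, had means of 11.5 and 35.7 CPM, and Mgst3, a microsomal glutathione transferase gene, had means of 31.1 and 12.4 CPM. With 6 libraries in 2 groups such a likeness rests mostly on the difference between the groups.

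Gene counts came to between 18625748 and 23036332 per library. Of 8 listed hepatocyte markers 7 were measured, and their sum was 28000 to 29200 CPM with PBS and 25200 to 26400 CPM with LRG1. Fgb, Apoa1, Ahsg and Hnf4a were lower, so 4 were lower and none higher, against 25.8% and 25.5% of all tested genes. Alb, the largest part of the sum, did not pass (log2 fold change -0.05), nor did Ttr (-0.01) and Apob (0.12). AP-1 genes are also expressed by the other cells of the liver, and in bulk samples fewer cells of a type and less RNA per cell cannot be told apart. Summed macrophage markers were 219 to 266 CPM with PBS and 182 to 207 CPM with LRG1. Of 6 tested, Cd68 was lower (log2 fold change -0.36) and Marco higher (0.70), and most of the sum was Cd68, while Emr1 and Clec4f, which define liver macrophages, had group means under 2 CPM. Endothelial markers summed to 40.1 to 42.4 and 33.8 to 37.9 CPM, with Stab2 and Lyve1 lower among 6 tested. Stellate and fibroblast markers summed to 18.3 to 22.7 and 16.7 to 19.7 CPM, with Reln lower among 5 tested. Of the cholangiocyte markers Krt19 was lower (-2.50) and Sox9 higher (0.68), and their sum of 4450 to 4630 and 4330 to 4640 CPM was almost wholly Spp1. Summed leukocyte markers stayed between 0.431 and 1.05 CPM in every library, and Cd3e, Nkg7 and S100a9 had no count in any. The part of these other cell types in the AP-1 differences was not tested.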

How the data were processed

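Per the labels' protocols, poly(A)-selected, strand-marked libraries were made from about 500 ng of total RNA and sequenced as single 50 nt reads. The authors deposited unnormalized counts for each gene symbol, for which the submitters' processing notes name bcl2fastq, TopHat2, HTSeq and mm9. Not given in the sources used here are versions, annotation, strand setting and multi-mapping rules. The 5 HTSeq summary rows were left out of library sizes: 8.96 to 10.3% of uniquely aligned reads fell in no gene, 0.258 to 0.280% were ambiguous, and non-unique alignments were 58.2 to 59.3% of all row totals, so close paralogs may have lost counts. No replicate pair matched within sampling noise (chi-square per degree of freedom 2.93 to 4.17).

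Groups came from the sample titles. Genes were kept by filterByExpr (minimum count 10), which left 12301 genes with 99.95% of the gene counts. Treatment was tested by the quasi-likelihood F test of edgeR 4.0.16 under R 4.3.3, with TMM scaling, adjusted by Benjamini-Hochberg across the 12301 genes and called at 0.05. SE came from the F statistic, and 95% intervals from SE and the total degrees of freedom. Lengths and GC content came from GENCODE M21 (GRCm38), matched by symbol or a unique RefSeq synonym for 22178 of 22609 rows. The members and the lists were chosen with earlier results of these data known. Named genes are the 9 members, up to 4 called genes per list with the smallest p, and the 3 nearest genes of the called members with the highest and lowest fold change. Some genes that this rule or a list names are not reported here. The test was checked on simulated counts of 12220 genes, where 183 were called and 6.56% of these were unchanged. Changes of 1.25-fold, 1.5-fold, 2-fold and 4-fold were recovered in 62, 85.4, 93.9 and 100% of cases. Far fewer genes were changed there than are called in the data, so the simulation does not give the error rate of this comparison. Alternatives were other scalings, other filters, DESeq2 1.42.0, limma-voom (limma 3.58.1), a robust fit, a replicate block, GC and length trends removed, and leaving out each library.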

Additional observations from a re-analysis of the deposited data

How the results depend on the processing

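The 9 members kept their direction in all 16 alternatives, and apart from Maff, whose log2 fold change ran from 0.11 to 0.16 when libraries were left out, all stayed past the threshold. The log2 fold change of Junb ran from 1.37 to 1.46, that of Fosb from 1.55 to 1.72, that of Jund from -0.72 to -0.58 and that of Atf3 from -1.34 to -1.24. No scaling moved the median of all genes by more than a small amount (0.025 with total counts, against 0.0093). The number of genes past the threshold was 6317, and 5594 to 6592 over the alternatives. Of the ATF, BATF and CREB partners, 1 gene was higher with GC and length trends removed, and 1 to 2 when libraries were left out. Of the Maf and cap'n'collar partners, 0 were higher with DESeq2, and 0 to 1 when libraries were left out. The cause was not tested.

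Deviations of same-numbered libraries correlated at -0.20, 0.02 and -0.19 over 11011 genes, and those of differently numbered libraries at -0.12 to 0.27. With 3 libraries per group these values cannot show whether the samples were prepared in pairs. With the replicate block 5890 genes passed, against 6317 without it, and no member's call changed.

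Shares within families depend on the length, an alternative chosen after the data were seen. With all annotated exons as length, the shares with PBS and LRG1 were 34.9 and 58.5% for Fosl2, 41.5 and 22.6% for Fosl1, 27.5 and 60.9% for Junb, and 53.6 and 28.3% for Jund, and the ratio of Jun family to Fos family mRNA was 10.0 and 13.8. With no length they were 70.0 and 83.9% for Fosl2, 17.5 and 6.83% for Fosl1, 29.7 and 63.1% for Junb, and 42.0 and 21.3% for Jund, and the ratio was 4.43 and 4.55. The directions were the same for every share. Depth limits Fosb most, which rests on 38 to 44 counts per PBS library.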
